A study of Mus musculus with 12 samples.

Results

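Carboxylesterase transcripts were followed across 12 liver libraries of mice aged 12 months. The genes described are Ces1b, Ces1c, Ces1d, Ces1e, Ces1f and Ces1g of the CES1 subfamily, Ces2a and Ces2e of the CES2 subfamily, and Ces3a and Ces3b of the CES3 subfamily. They were chosen by gene symbol and are 10 of the 18 carboxylesterase rows, and of 18560 genes, in the table of expression values. The study compared OXR1A-/- livers with wild type (WT) livers in each sex. The 4 groups of 3 libraries were OXR1A-/- males (OXR1A_M), WT males (WT_M), OXR1A-/- females (OXR1A_F) and WT females (WT_F). OXR1A is a protein made from Oxr1, a gene known for protection against oxidative damage, and the title of the study names fatty liver and lipid metabolism in males. The labels give no agent or treatment, no strain, and no second allele shared by the groups. They do not say how the allele was made or whether the libraries of a group stem from different animals. The p-values therefore reflect variation among these libraries, part of which may be technical.

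Carboxylesterases are serine hydrolases that split esters, thioesters and amides, and they are among the most abundant enzymes of the hepatocyte. Most reside in the lumen of the endoplasmic reticulum, where they hydrolyse drugs and pesticides as well as neutral lipids, and a short carboxy-terminal signal keeps them there. In mice Ces1d, once called triacylglycerol hydrolase, and Ces1f release fatty acids from stored triglyceride for the assembly of very low density lipoprotein, Ces1g restrains fat synthesis and storage in liver, and Ces1e, known as egasyn, holds beta-glucuronidase in the endoplasmic reticulum. Ces1c is the esterase of mouse blood plasma, which cleaves many ester prodrugs before they reach tissue. The CES2 enzymes prefer esters with a small acyl group and a large alcohol group, and Ces2e is known as a pyrethroid hydrolase.

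Expression was given as FPKM, a fragment count corrected for transcript length and library depth, so levels of different genes can be set side by side. FPKM summed to between 526203 and 667434 per library. The highest sum was that of WT male 2, where long transcripts were also scarcer than elsewhere (slope of the log2 deviation on log2 transcript length of -0.204, against -0.085 to 0.115 in the other libraries). Traces of a transcript of the other sex were found in 3 libraries, with 0.82 FPKM of Xist in OXR1A-/- male 3, and 0.85 and 1.89 FPKM of the Y-linked Eif2s3y in OXR1A-/- female 1 and WT female 1. These 3 are called the sex-trace libraries here, and calls of the carboxylesterases are also given without them and, where WT_M enters the comparison, without WT male 2. The summed level of 8 hepatocyte markers, among them albumin and transthyretin, was 44622 to 46420 FPKM in OXR1A_M, 53155 to 61739 FPKM in WT_M, 56179 to 57741 FPKM in OXR1A_F and 51334 to 58548 FPKM in WT_F. Oxr1 as a whole gene averaged 23.4 ± 1.48 FPKM in OXR1A_M, 17.9 ± 5.61 FPKM in WT_M, 20.2 ± 0.642 FPKM in OXR1A_F and 18.5 ± 1.85 FPKM in WT_F (SD, n = 3 each). A value for the whole gene does not check the loss of 1 of its isoforms.

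All 10 genes lie on mouse chromosome 8 (build GRCm38) in 2 arrays. The 6 CES1 genes occupy 280 kb on the minus strand (chr8:93056725-93337209), and the CES2 and CES3 genes occupy 360 kb on the plus strand (chr8:104734003-105093929), with 11397 kb between them. Coding sequences within a subfamily were 72.0% to 95.3% identical in pairwise alignment, with Ces3a and Ces3b the closest pair, and those of different subfamilies 54.0% to 58.6%. The ends of the coding sequences show which enzymes carry the signal for the endoplasmic reticulum. The last 15 coding bases of each gene's reference transcript, stop codon included, are given 5′ to 3′ from GENCODE mouse release 21, and capitals mark the codons for histidine, any residue, glutamate and leucine where these 4 stand just before the stop.
Ces1b: agagaacacaaatga
Ces1c: acagaacacaaatga
Ces1d: CATGTTGAGCTCtga
Ces1e: CACACTGAGCTGtga
Ces1f: CACAATGAGCTGtga
Ces1g: CATGTTGAACTGtga
Ces2a: CATGCAGAGCTGtag
Ces2e: CACAAAGAGTTGtag
Ces3a: ccagaggagctctga
Ces3b: ccagaggagctctga
This form of the signal was encoded in 6 of the 10 genes: Ces1d, Ces1e, Ces1f, Ces1g, Ces2a and Ces2e. It was not found in Ces1b, Ces1c, Ces3a and Ces3b, and other forms of the signal were not searched. Ces3a and Ces3b ended in the same 15 bases, where glutamate and leucine also stand before the stop but the histidine codon is absent.

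Promoter windows of 250 bases before and 50 bases after an annotated start were matched for 7 of the 10 genes in RefSeq (GRCm38.p6), and Ces1d, Ces1f and Ces3a had none in that table. Shown 5′ to 3′ are those of Ces3b and Ces2a, the genes that fell in OXR1A-/- males, and those of the neighbours Ces1b and Ces1c, whose windows were 78.0% identical (for Ces1b, 1 of its 2 windows). Capitals mark matches to the motifs TTGCNNAA, the site of C/EBP proteins, AGGTCA, the half-site of many nuclear receptors, and TATAAA, the TATA box, on either strand.
Ces3b (chr8:105083505-105083804, plus strand): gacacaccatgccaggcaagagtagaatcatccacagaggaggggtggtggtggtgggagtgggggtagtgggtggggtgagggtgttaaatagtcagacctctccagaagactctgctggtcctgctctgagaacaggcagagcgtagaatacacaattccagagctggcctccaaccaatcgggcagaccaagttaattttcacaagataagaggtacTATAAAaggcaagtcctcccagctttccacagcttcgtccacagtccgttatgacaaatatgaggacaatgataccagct
Ces2a (chr8:104733753-104734052, plus strand): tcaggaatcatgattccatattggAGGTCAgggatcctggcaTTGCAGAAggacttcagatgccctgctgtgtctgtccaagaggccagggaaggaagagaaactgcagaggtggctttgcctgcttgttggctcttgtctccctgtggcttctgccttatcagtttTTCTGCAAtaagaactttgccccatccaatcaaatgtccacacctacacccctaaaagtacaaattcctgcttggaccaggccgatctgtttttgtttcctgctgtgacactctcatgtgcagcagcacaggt
Ces1b (chr8:93079891-93080190, minus strand): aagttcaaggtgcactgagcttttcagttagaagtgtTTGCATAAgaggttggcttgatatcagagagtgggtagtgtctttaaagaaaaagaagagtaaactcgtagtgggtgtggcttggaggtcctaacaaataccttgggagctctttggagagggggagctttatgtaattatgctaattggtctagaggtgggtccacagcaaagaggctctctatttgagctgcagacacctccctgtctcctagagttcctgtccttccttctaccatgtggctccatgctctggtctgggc
Ces1c (chr8:93131234-93131533, minus strand): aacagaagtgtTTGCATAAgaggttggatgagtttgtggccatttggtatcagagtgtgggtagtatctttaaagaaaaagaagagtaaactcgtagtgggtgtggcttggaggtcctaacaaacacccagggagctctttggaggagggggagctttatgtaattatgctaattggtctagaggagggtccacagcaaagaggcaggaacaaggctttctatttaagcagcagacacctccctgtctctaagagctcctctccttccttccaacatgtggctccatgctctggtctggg
TTGCNNAA was found in 4 of the 7 genes (Ces1b, Ces1c, Ces2a and Ces2e) and in 10.8% of all 32851 windows. It occurred at 2 places in the Ces2a window, and the AGGTCA match of that window began at position -226 from the annotated start. AGGTCA was found in 1 of the 7 genes and in 16.3% of all windows. TATAAA was found in Ces3b, from position -30, and in Ces1g, from position -26, which is 2 of the 7 genes against 13.6% of all windows. TTCNNNGAA, the site of the growth hormone effector STAT5, matched none of the 7 genes and 8.3% of all windows. Likewise 0 of the 7 genes held TGTTTAC (FOXA proteins, 3.65% of all windows), CAAAGTCCA (HNF4, 0.475%) or TGACNNNGC (the antioxidant response element, 12.4%). The motifs did not overlap in the windows shown, and these counts describe letters in short windows, not binding.

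All 10 genes were expressed in every library, from 34.15 FPKM of Ces1b to 2527 FPKM of Ces1c, and all 10 passed the filter on low values. Together they made up 0.562% to 0.664% of the FPKM in OXR1A_M, 0.584% to 0.798% in WT_M, 0.667% to 0.715% in OXR1A_F and 0.746% to 0.777% in WT_F. Ces1c ranked first in each of the 4 groups by mean FPKM, and Ces1b ranked last. Ces3a, Ces1d and Ces1f took the next places in OXR1A_M, WT_M and OXR1A_F, while in WT_F the libraries of Ces1d (403 ± 36.3 FPKM) and Ces3a (387 ± 33.1 FPKM) overlapped. The order of the lower genes was less separate. In OXR1A_M the ranges of Ces1e, Ces2e, Ces2a and Ces3b overlapped from each to the next, and in WT_M those of Ces3b, Ces2a, Ces1g and Ces1e did so. Ces3b held the fifth place in WT_M at 185 ± 45.9 FPKM and the ninth place in OXR1A_M at 57.0 ± 22.7 FPKM (SD, n = 3 each).

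**Figure D1:**
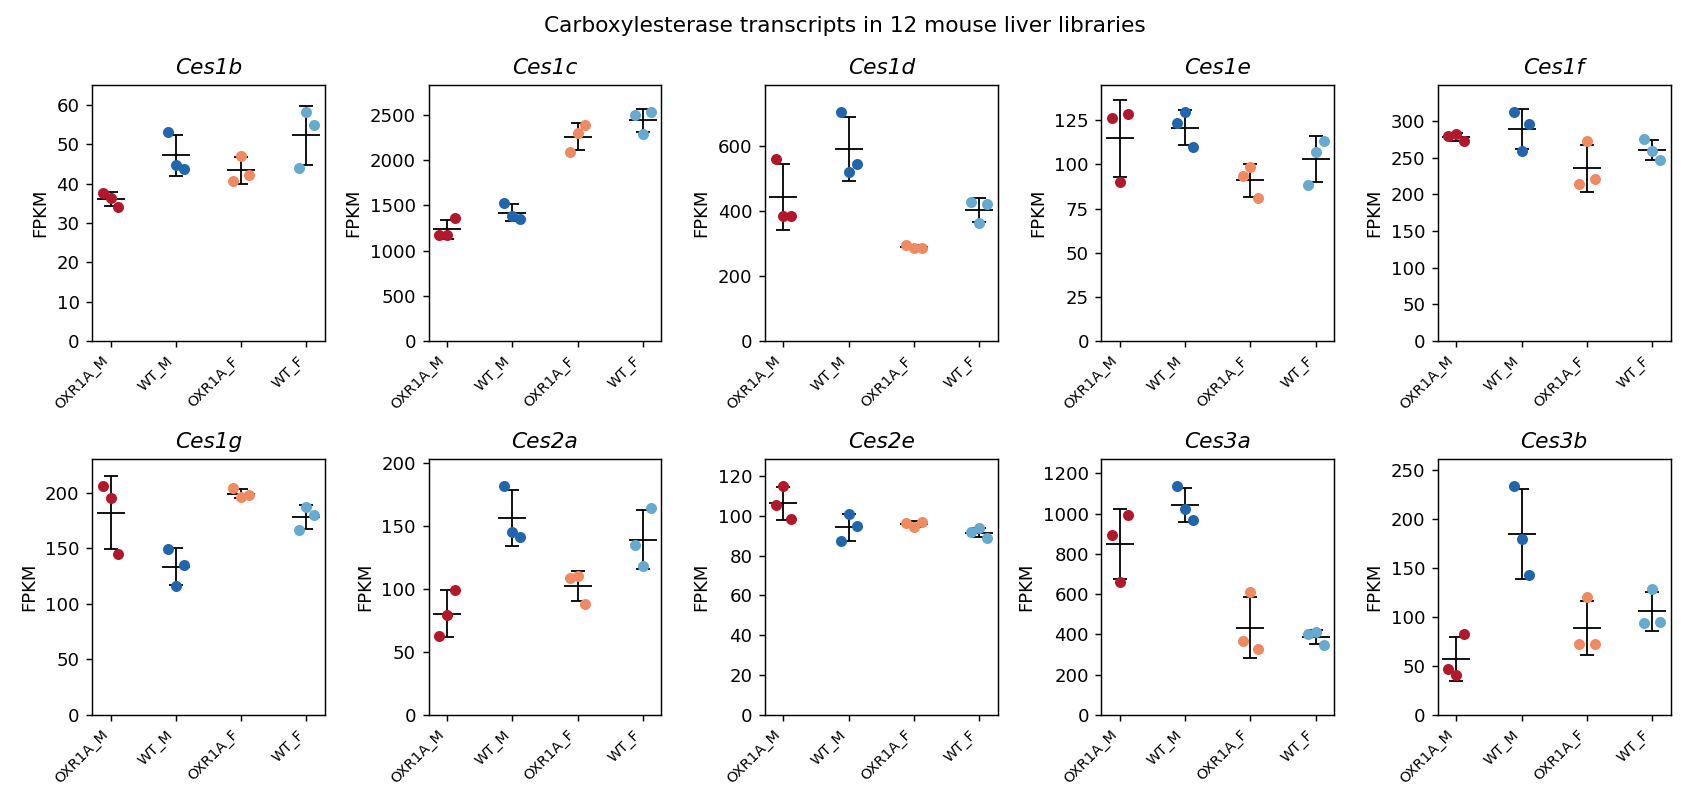
FPKM of the 10 carboxylesterase genes in each of 12 libraries, 1 panel per gene, with groups OXR1A_M, WT_M, OXR1A_F and WT_F on the horizontal axis; points are libraries, bars the mean and SD (n = 3), and each vertical axis starts at 0. Ces3b and Ces2a lie lower in OXR1A_M than in WT_M with no overlap, and Ces1c lies lower and Ces3a higher in males than in females of either genotype.

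In OXR1A-/- males 2 of the 10 carboxylesterases fell against WT males, the CES3 gene Ces3b and the CES2 gene Ces2a, and the other 8 did not pass the test. Across all 11514 tested genes 2.55% were called in this comparison and 0.426% were called lower (limma on log2(FPKM + 1), adjusted p under 0.05 after Benjamini-Hochberg adjustment over all tested genes). Higher calls numbered 245 and lower calls 49, but 68 and 77 after median-ratio scaling, and Ces3b and Ces2a were called lower under both. Ces3b measured 47.4, 40.6 and 82.95 FPKM in OXR1A_M, against 234, 179 and 143 FPKM in WT_M. Every OXR1A_M library was below every WT_M library, and OXR1A_M library 3, the male sex-trace library, stood nearest to WT. The mean was 3.25-fold lower in OXR1A_M, a log2 change of -1.72 (SE 0.29, limma adjusted p = 0.0141).

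Ces2a measured 62.2, 79.0 and 99.4 FPKM in OXR1A_M, against 182, 145 and 141 FPKM in WT_M. The groups did not overlap, and the highest OXR1A_M library was again library 3. Ces2a averaged 80.2 ± 18.6 FPKM in OXR1A_M and 156 ± 22.1 FPKM in WT_M (SD, n = 3 each), which is 1.95-fold lower (log2 change -0.97, SE 0.19, limma adjusted p = 0.0258). In bulk tissue, fewer hepatocytes and less of a transcript per hepatocyte cannot be told apart.

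Of the 8 genes that did not pass, 3 had an unadjusted p under 0.05, so that 5 of the 10 did in all, against 23.9% of all genes. Ces1b was 1 of these, with 37.7, 36.5 and 34.15 FPKM in OXR1A_M, against 53.2, 44.7 and 43.7 FPKM in WT_M. Its groups did not overlap, and its log2 change was -0.37 (SE 0.13, limma adjusted p = 0.119). With Ces2a and Ces3b it made 3 of 10 genes whose OXR1A_M libraries all lay below WT_M, against 2.49% of all genes. Hepatocyte markers had a like share: 3 of 8 lay lower and 1 higher without overlap, and 4 had an unadjusted limma p under 0.05. These shares were counted without scaling of the libraries.

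Ces1d, the triglyceride hydrolase of the endoplasmic reticulum, had 560, 383 and 384 FPKM in OXR1A_M, against 702, 521 and 544 FPKM in WT_M. OXR1A_M library 1 lay above 2 WT_M libraries, so the groups overlapped (log2 change -0.42, SE 0.17, limma adjusted p = 0.153). Ces1g, the enzyme that restrains hepatic fat synthesis, had a positive log2 change, with 206, 196 and 145 FPKM in OXR1A_M, against 149, 116 and 135 FPKM in WT_M. Library 3 of OXR1A_M lay within the WT_M range, and that change was 0.44 (SE 0.14, limma adjusted p = 0.107). Without that library Ces1g passed the test at a log2 change of 0.59 (limma adjusted p = 0.0314), in a fit that called 570 of all genes, against 294. Ces1g was called in only 1 of the 12 fits with 1 library left out. It was called in 0 of 10 other settings, among them the fit without the 3 sex-trace libraries.

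The remaining 5 genes had unadjusted p above 0.05. Ces3a, the close copy of Ces3b, had 896, 658 and 995 FPKM in OXR1A_M, against 1137, 1023 and 969 FPKM in WT_M. Its groups overlapped, and its log2 change was -0.31 with a 95% interval of -0.79 to 0.17. The plasma esterase Ces1c had 1174, 1171 and 1358 FPKM in OXR1A_M, against 1523, 1382 and 1349 FPKM in WT_M (log2 change -0.20, 95% interval -0.45 to 0.05). Over the 12 libraries Ces1e ran from 80.7 to 129 FPKM, Ces1f from 214 to 312 FPKM and Ces2e from 87.2 to 115 FPKM. Log2 changes of Ces1e, Ces1f and Ces2e in males were -0.09, -0.05 and 0.17, and that of Ces2e was -0.07 after median-ratio scaling of the libraries. The median over the 10 genes was -0.26, against 0.19 over all genes tested, and after median-ratio scaling -0.50, against -0.0014.

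**Figure D2:**
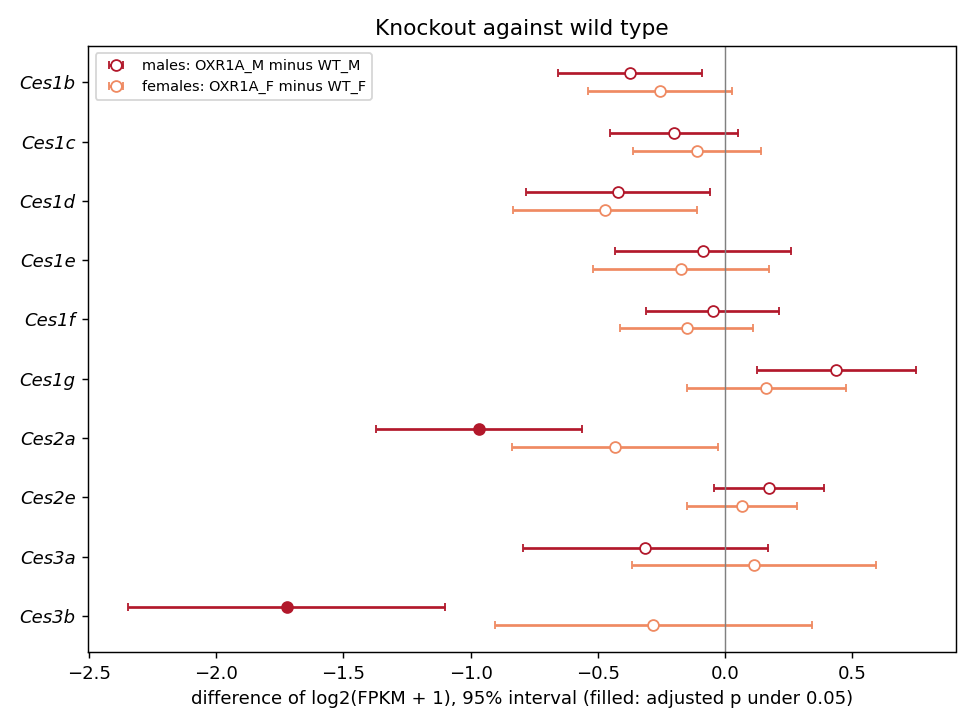
Log2 change of each carboxylesterase in OXR1A_M minus WT_M (dark red) and OXR1A_F minus WT_F (orange), with 95% intervals from limma; filled points passed an adjusted p of 0.05. Ces2a at -0.97 and Ces3b at -1.72 in males are the filled points, and the female interval of Ces3b runs from -0.91 to 0.34.

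The calls of Ces3b and Ces2a in males lay close to the threshold. Leaving out each of the 12 libraries in turn gave log2 changes of -2.02 to -1.52 for Ces3b, and the call was lost without OXR1A_M library 2 (limma adjusted p = 0.0521). For Ces2a the log2 change ran from -1.13 to -0.80, and the call was lost without OXR1A_M library 1 or 2 (adjusted p = 0.0626 and 0.0814) and without WT_M library 1, 2 or 3 (adjusted p = 0.0592, 0.0507 and 0.0695). Without WT male 2, Ces3b had a log2 change of -1.73 (limma adjusted p = 0.0398). Without the 3 sex-trace libraries, both genes were called, Ces3b at -2.02 (adjusted p = 0.0212) and Ces2a at -1.13 (adjusted p = 0.0444). When only OXR1A_M and WT_M were fitted, neither passed, at adjusted p = 0.111 for Ces3b and 0.168 for Ces2a. Over the 9 settings tried other than leaving out a library, adjusted p ran from 0.0136 to 0.111 for Ces3b and from 0.0206 to 0.168 for Ces2a.

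**Figure D3:**
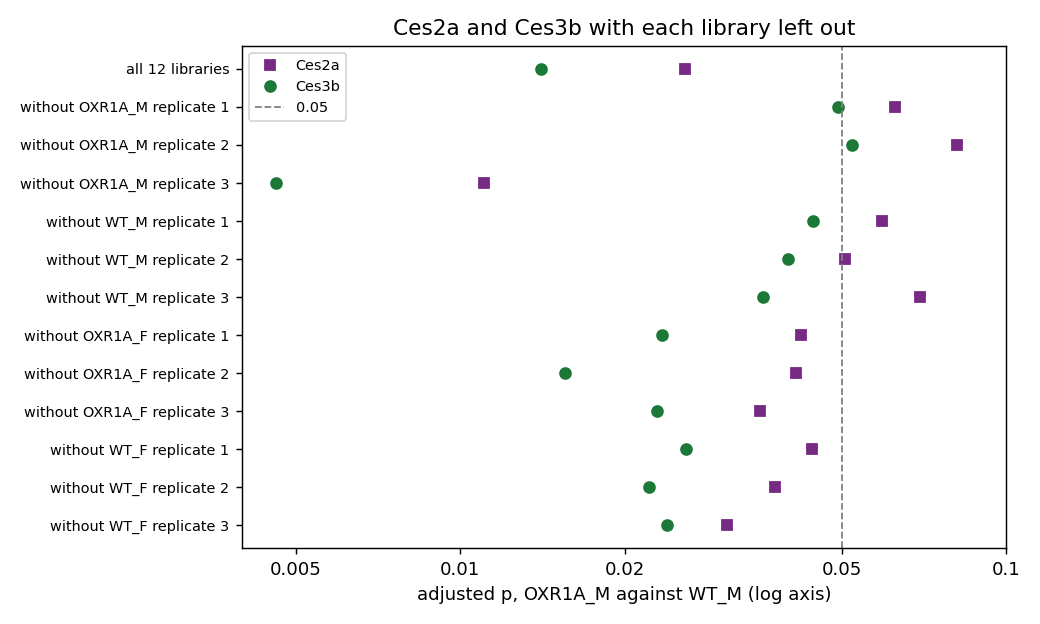
Adjusted p (log axis) of Ces2a (squares) and Ces3b (circles) in OXR1A_M against WT_M, with all 12 libraries and with each left out; the dashed line is 0.05. Ces3b crosses it without OXR1A_M replicate 2 (0.0521), and Ces2a crosses it without any of 5 male libraries, up to 0.0814.

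Markers of other cell types moved in the same comparison. Macrophage markers rose in OXR1A_M for 6 of 8 genes, with summed levels of 170 to 368 FPKM in OXR1A_M and 72.0 to 116 FPKM in WT_M. Markers of sinusoidal endothelium rose for 5 of 8 (58.8 to 81.0 FPKM in OXR1A_M and 31.7 to 44.0 FPKM in WT_M) and those of stellate cells for 2 of 8 (160 to 246 FPKM in OXR1A_M and 107 to 125 FPKM in WT_M). After median-ratio scaling 1, 4 and 0 of these markers rose. No hepatocyte marker of 8 was called, with a median log2 change of -0.28, against 0.19 over all genes. That median was -0.53 after median-ratio scaling and 0.01 after quantile normalization. Of 4 tested fat cell markers, the lipid droplet gene Cidec rose, and 0 of 4 cholangiocyte, 0 of 4 lymphocyte, 0 of 2 intestinal and 0 of 1 pancreatic markers were called. Kidney tubule markers summed to at most 0.2 FPKM in any library. Whether cell composition had a part in the carboxylesterase differences was not tested.

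In OXR1A-/- females 0 of the 10 carboxylesterases passed the test against WT females, as against 0.0174% of all genes (limma, adjusted p under 0.05), and 2 had an unadjusted p under 0.05, against 6.13% of all genes. Ces1d was 1 of these, with 296, 285 and 287 FPKM in OXR1A_F, against 428, 361 and 420 FPKM in WT_F. The groups did not overlap, and the log2 change was -0.47 (SE 0.17, limma adjusted p = 0.748). Ces2a was the other, with 109, 110 and 88.3 FPKM in OXR1A_F, against 135, 118 and 164 FPKM in WT_F (log2 change -0.43, SE 0.19, limma adjusted p = 0.796). These 2 of 10 genes lay below WT_F in every library, against 8.42% of all genes, and Ces1g and Ces2e lay above it in every library, against 9.22%.

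Ces3b, the gene with the largest log2 change of the 10 in males, had 72.5, 120 and 73.0 FPKM in OXR1A_F, against 93.8, 129 and 95.4 FPKM in WT_F. The groups overlapped, and the log2 change was -0.28 with a 95% interval of -0.91 to 0.34. Ces3a had 367, 609 and 326 FPKM in OXR1A_F, against 402, 411 and 350 FPKM in WT_F, and its OXR1A_F library 2 was the highest of the 6. Ces1g, with 204, 196 and 198 FPKM in OXR1A_F, against 167, 188 and 181 FPKM in WT_F, had a log2 change of 0.16 (limma adjusted p = 0.904). The median log2 change over the 10 genes was -0.16, against 0.00303 over all genes tested, and 0 markers of the cell types above were called.

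The difference between the effect of the genotype in males and that in females was tested directly, and 0 of the 10 genes passed, as against 0.0261% of all genes (limma). Ces3b alone of the 10 had an unadjusted p under 0.05, against 9.03% of all genes. The effect in males minus that in females was -1.44 on the log2 scale (SE 0.40, 95% interval -2.32 to -0.56, unadjusted p = 0.00403, limma adjusted p = 0.433). For Ces2a the difference was -0.54 (95% interval -1.11 to 0.04), and for the other 8 genes it ran from -0.43 to 0.27. Thus Ces3b and Ces2a are called in males and not in females, and the difference between the sexes itself did not pass.

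Sex separated Ces1c and Ces3a in both genotypes. In wild type 2 of 10 genes were called between males and females, Ces1c lower and Ces3a higher in males, against 13.4% of all genes called, 11.1% lower and 2.31% higher (limma). That split of 266 genes higher and 1273 lower depended on scaling, with 618 higher and 456 lower after median-ratio scaling and 578 higher and 509 lower after quantile normalization. The plasma esterase Ces1c, with the WT_M values given above, had 2500, 2290 and 2527 FPKM in WT_F. Every male library was below every female one, and the mean was 1.72-fold lower in WT_M (log2 change -0.78, SE 0.11, limma adjusted p = 0.00148). Ces3a, at 1043 ± 85.6 FPKM in WT_M and 387 ± 33.1 FPKM in WT_F (SD, n = 3 each), was 2.69-fold higher in WT_M (log2 change 1.43, SE 0.22, limma adjusted p = 0.00188).

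Both kept their calls without WT male 2 (adjusted p = 0.00421 for Ces1c and 0.00685 for Ces3a) and without the 3 sex-trace libraries (adjusted p = 0.0193 and 0.0184). After median-ratio scaling, which moved the median of all genes in this comparison to 0.03 in place of -0.21, Ces1c did not pass (log2 change -0.48, limma adjusted p = 0.0978), and Ces1d passed as higher in males (log2 change 0.84, adjusted p = 0.0126). Without that scaling Ces1d, at 589 ± 98.7 FPKM in WT_M and 403 ± 36.3 FPKM in WT_F (SD, n = 3 each), had a log2 change of 0.54 (limma adjusted p = 0.0522).

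Other carboxylesterases were nearer to or short of the threshold in wild type. Ces3b was 1.75-fold higher in WT_M by its means (log2 change 0.79, SE 0.29, limma adjusted p = 0.0866), and Ces1g was 1.34-fold lower (log2 change -0.42, SE 0.14, adjusted p = 0.0718). Groups did not overlap for 3 genes higher in males, Ces1d, Ces3a and Ces3b, against 6.04% of all genes, and for 2 lower, Ces1c and Ces1g, against 34.1%. The other 5 genes overlapped, with log2 changes of -0.14 to 0.23. In this comparison 7 of 8 macrophage, 7 of 8 endothelial and 4 of 8 stellate markers were lower in WT_M, and after median-ratio scaling 5, 7 and 1 were. The fat cell markers Cidec and Cfd, 2 of 4, were higher in WT_M, and 1 of 8 hepatocyte markers was lower. Their part in the sex differences was not tested.

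In OXR1A-/- livers the same 2 genes were called between the sexes in the same directions, against 3.67% of all genes, 2.01% lower and 1.67% higher in males (limma). Ces1c averaged 1234 ± 107 FPKM in OXR1A_M and 2259 ± 148 FPKM in OXR1A_F (SD, n = 3 each), 1.83-fold lower in males (log2 change -0.87, SE 0.11, limma adjusted p = 0.00133). Every male library, at most 1358 FPKM, lay below every female library, at least 2095 FPKM. Ces3a averaged 850 ± 173 FPKM in OXR1A_M and 434 ± 153 FPKM in OXR1A_F (SD, n = 3 each), 1.96-fold higher in males (log2 change 1.0, SE 0.22, limma adjusted p = 0.0275).

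Ces1c kept its call without the 3 sex-trace libraries (log2 change -0.997, limma adjusted p = 0.0202), and Ces3a did not (log2 change 0.78, adjusted p = 0.371). Ces3a also missed the threshold without OXR1A_M library 1 or 3 and without OXR1A_F library 1 or 3, at limma adjusted p = 0.0997, 0.0922, 0.127 and 0.110, and with median-ratio scaling at 0.0618. Groups did not overlap for Ces1d, Ces2e and Ces3a, higher in males (against 10.1% of all genes), and for Ces1b and Ces1c, lower in males (against 12%). Ces1d had a log2 change of 0.59 (SE 0.17, limma adjusted p = 0.0818), close to its 0.54 in wild type. Ces3b had a log2 change of -0.65 (SE 0.29, adjusted p = 0.294), against 0.79 in wild type, and the difference of these 2 values is the one tested above between genotype and sex.

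No macrophage, endothelial or stellate marker of 8 each was called between the sexes in OXR1A-/- livers, and the fat cell markers Cidec and Cfd were higher in males, as they were in wild type.

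**Figure D4:**
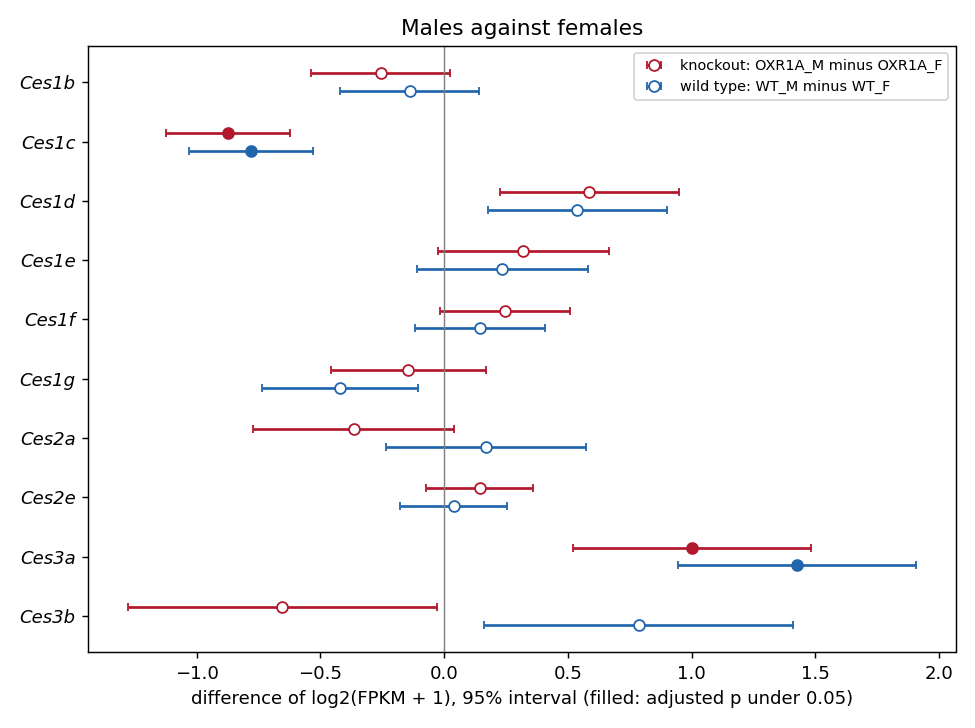
Log2 change of each carboxylesterase in males minus females, in OXR1A-/- (dark red) and wild type (blue), with 95% intervals from limma; filled points passed an adjusted p of 0.05. Ces1c (-0.87 in OXR1A-/- and -0.78 in wild type) and Ces3a (1.0 and 1.43) are filled in both, and Ces3b lies at -0.65 in OXR1A-/- and 0.79 in wild type.

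Ratios of 2 genes within a library do not change when each library is scaled by 1 factor, as in median-ratio scaling. Quantile normalization can change them. They are given as a description. Ces1c exceeded Ces3a 1.31-fold to 1.78-fold in OXR1A_M and 1.34-fold to 1.39-fold in WT_M, but 3.78-fold to 7.30-fold in OXR1A_F and 5.57-fold to 7.23-fold in WT_F. Males of both genotypes lay together below all females. Ces1c made up 33.6% to 38.4% of the FPKM of the 10 genes in OXR1A_M and 33.8% to 35.4% in WT_M, and 55.6% to 62.8% in OXR1A_F and 57.0% to 59.6% in WT_F.

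The ratio of the 2 CES3 copies had another pattern. Ces3a exceeded Ces3b 18.9-fold, 16.2-fold and 12.0-fold in OXR1A_M, and 4.86-fold, 5.70-fold and 6.79-fold in WT_M. It did so 4.47-fold to 5.07-fold in OXR1A_F and 3.19-fold to 4.28-fold in WT_F. The 3 OXR1A_M libraries stood above the other 9, whose ratios were at most 6.79. Of the stretches of 50 bases in the Ces3a transcript, 30.8% occur also in Ces3b, as do 26.1% of those of Ces3b in Ces3a, so reads could be split between them and their separate levels carry that uncertainty. Shared stretches of 50 bases were 10.8% for Ces1b and 13.4% for Ces1c, mostly with each other, and at most 3.36% for the other 6 genes. For stretches of 100 bases the shares were 9.09% for Ces3a, 7.68% for Ces3b, 1.29% for Ces1b and 1.39% for Ces1c. They were 0% for the other 6 genes.

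**Figure D5:**
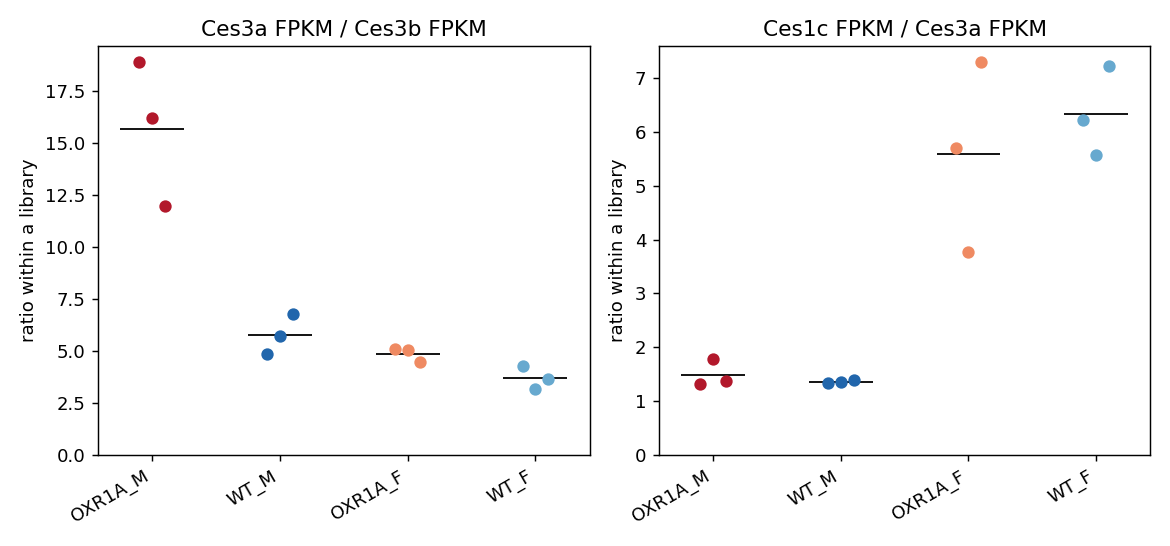
Ratio of Ces3a to Ces3b FPKM (left) and of Ces1c to Ces3a FPKM (right) in each library, by group, with the group mean as a line; both axes start at 0. Ces3a over Ces3b is 12.0 to 18.9 in OXR1A_M and 3.19 to 6.79 in the other groups, and Ces1c over Ces3a is at most 1.78 in males and at least 3.78 in females.

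Within groups, after the group means were removed, Ces3a and Ces3b varied together over the 12 libraries (r = 0.82), and across all libraries, group differences included, their correlation was 0.32. Both values describe libraries that share depth and scaling. The within-group r of this pair was the highest of the carboxylesterase pairs compared, and the lowest was -0.81 (Ces1e with Ces2g). Ces3a and Ces3b also share the most sequence, and whether reads split between them raise their r was not tested. Outside the family, the genes most like each carboxylesterase in log2(FPKM + 1) over the 12 libraries were Lipc (r = 0.99), the hepatic lipase, and BC089597 (0.97) for Ces1c, and Hao1 (0.99), which makes peroxisomal hydroxyacid oxidase, and C8b (0.97), a complement component, for Ces3a. For Ces1g they were Gucy1b3 (0.96) and Tmem47 (0.95), for Ces2a 2310001H17Rik (0.93) and Igfbp2 (0.85), and for Ces3b Gm16551 (0.91) and Spsb4 (0.90). For Ces1d they were Plcb1 (0.92) and Sel1l3 (0.91), and for Ces2e Bhmt (0.92) and Fbxw4 (0.90). The lowest leading values were those of Ces1b with Foxq1 (0.87), Ces1e with 2810007J24Rik (0.90) and Ces1f with Cyp2f2 (0.86). The second genes of Ces1e and Ces1f were Rplp2-ps1 (0.87) and Tdo2 (0.86). These r values are the highest picked from all tested genes outside the family, with group differences included. They describe likeness over 12 libraries and are not tests.

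Of the other 8 carboxylesterase rows, Ces2c and Ces2g were expressed. Ces2c, a lipase of the endoplasmic reticulum in mouse liver, measured 15.6, 39.5 and 19.7 FPKM in OXR1A_M, against 7.41, 9.16 and 9.17 FPKM in OXR1A_F. It rose 2.90-fold in males of this genotype (log2 change 1.33, SE 0.30, limma adjusted p = 0.0305), a call lost without the 3 sex-trace libraries (adjusted p = 0.248). It was also lost with no filter on low values (0.0667), with only the 2 groups fitted (0.0854), and in 6 of the 12 fits with 1 library left out. These were the fits without WT_F library 1 (adjusted p = 0.0513), OXR1A_M library 2 or 3 (0.0577 and 0.0508) and OXR1A_F library 1, 2 or 3 (0.131, 0.0813 and 0.0816). In wild type Ces2c had a log2 change of 0.95 (limma adjusted p = 0.0582) and was not called. There it was called in 4 of 10 other settings and in 2 of 12 fits with 1 library left out. The 4 settings were median-ratio scaling (0.0249), quantile normalization (0.0311), only the 2 groups fitted (0.0397) and a block by replicate number (0.0353). Ces2g averaged 17.1 to 25.3 FPKM over the 4 groups and was called in none of the 5 comparisons. Ces1a, Ces2b, Ces2f and Ces2h were at 0.41 FPKM or less in every library, the pseudogene Ces2d-ps was at 2.22 FPKM or less, and Ces4a was at 0.4 to 0.97 FPKM in WT_M and 0.28 FPKM or less elsewhere. Ces1h and Ces5a were not analysed here.

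Other enzymes and regulators of the same chemistry were read from lists. Of 14 other ester and amide hydrolases of liver, the kynurenine formamidase gene Afmid fell in OXR1A_M, with 59.9 ± 6.23 FPKM in OXR1A_M and 105 ± 9.30 FPKM in WT_M (SD, n = 3 each; log2 change -0.80, limma adjusted p = 0.0217), and 13 were not called. Of 16 triglyceride and phospholipid lipases, Mgll, the monoglyceride lipase, rose (log2 change 0.75, adjusted p = 0.0112). Of 11 lipoprotein assembly genes, P4hb, a subunit of the microsomal triglyceride transfer complex, rose (log2 change 0.53, adjusted p = 0.0475). Mgll and P4hb did not pass after median-ratio scaling (adjusted p = 0.135 and 0.411), and none of Afmid, Mgll and P4hb passed without the 3 sex-trace libraries (0.0694, 0.0735 and 0.122). With 1 library left out, Afmid missed the threshold without OXR1A_M library 2 or WT_M library 3 (0.0789 and 0.0888), Mgll without WT_M library 3 (0.0575), and P4hb in 10 of 12 fits (up to 0.136). With only the 2 groups fitted, or with array weights, none of these 3 genes passed.

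None of 27 regulators of liver drug and lipid enzymes was called in OXR1A_M against WT_M, and the smallest p was that of Ahr, the aryl hydrocarbon receptor (log2 change 0.83, limma adjusted p = 0.0827). In OXR1A_F against WT_F, 0 genes of these 4 lists were called, with the smallest adjusted p at 0.587 for Lipe, the hormone-sensitive lipase. The other lists' genes of smallest p were Afmid (-0.39), P4hb (0.20) and the growth hormone receptor gene Ghr (-0.33), in log2 change. For the difference between the effects in males and females 0 were called as well.

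Between males and females of wild type, 2 of the 14 hydrolases rose and 5 fell, 4 of the 16 lipases fell, 1 of the 11 lipoprotein genes fell and 2 of the 27 regulators fell, against 2.31% of all genes called higher and 11.1% called lower. After median-ratio scaling the counts were 3 higher and 2 lower, 1 and 1, 1 and 0, and 0 and 1, in the same order of lists. The cholesterol ester hydrolase gene Nceh1 had a log2 change of -1.07 (limma adjusted p = 0.00117) and the epoxide hydrolase gene Ephx2 one of 0.66 (adjusted p = 0.0104). Lipc, whose pattern was closest to that of Ces1c, averaged 69.8 ± 3.50 FPKM in WT_M and 143 ± 6.82 FPKM in WT_F (SD, n = 3 each; log2 change -1.02, adjusted p = 0.00027). The female-specific repressor gene Cux2 averaged 0.03 ± 0.01 FPKM in WT_M and 9.0 ± 5.07 FPKM in WT_F, and Tm6sf2, a lipoprotein lipidation gene, had a log2 change of -0.81 (adjusted p = 0.0194). Tm6sf2 did not pass after median-ratio scaling (0.158), and neither it (0.109) nor Ephx2 (0.0685) passed without the 3 sex-trace libraries. Tm6sf2 also missed the threshold without WT_M library 1 (0.0512) and without WT_F library 1, 2 or 3 (0.0697, 0.0572 and 0.0509).

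In OXR1A-/- livers 1 hydrolase rose in males (Ephx1, log2 change 0.82) and 2 fell (Notum, -1.21, and Afmid, -0.67), 1 lipase fell (Lipc, -1.30), P4hb rose (0.50), Tm6sf2 fell (-1.04), and 1 regulator fell (Cux2, -2.34), each with a limma adjusted p under 0.05. Without the 3 sex-trace libraries Notum (adjusted p = 0.0154) and Lipc (0.00271) passed, and the other 5 did not, at 0.139 for Ephx1, 0.292 for Afmid, 0.320 for P4hb, 0.0967 for Tm6sf2 and 0.0964 for Cux2. With 1 library left out, Ephx1 lost its call in 1 of 12 fits (without OXR1A_F library 1, 0.0516), Afmid in 4 and P4hb in 9. P4hb also did not pass after median-ratio scaling (0.0852) or with no filter on low values (0.0725). After quantile normalization Afmid (0.05005) and P4hb (0.117) did not pass. With only the 2 groups fitted, Ephx1, Afmid and P4hb did not pass (0.0559, 0.0674 and 0.0718). Of all genes, 1.67% were called higher and 2.01% lower in males. Lipc averaged 54.7 ± 6.96 FPKM in OXR1A_M and 136 ± 13.4 FPKM in OXR1A_F (SD, n = 3 each).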

How the data were processed

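The deposited values are FPKM of 18560 genes in 12 liver libraries, rounded to 2 decimals, with 1 column per library, per the file headers. Poly(A) RNA was copied with random primers, per the labels' protocols. The submitters' processing notes name TopHat2 and mm10; the quantifier, the annotation, the strand setting and read totals: not given in the sources used here. Steps in low FPKM values, with GENCODE transcript lengths, gave estimated depths of 20.1 to 30.3 M fragments, or about 1399 (Ces1b) to 115546 (Ces1c) fragments per carboxylesterase and library; the recovered values lay 0.128 to 0.158 from a whole number on average, against 0.25 with no steps, so depths are estimates and no counting interval is given.

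The test used limma 3.58.1 (R 4.3.3) on log2(FPKM + 1) of the 11514 genes that reached 1 FPKM in 3 or more libraries. All 12 libraries entered 1 fit of group means with trended variances, from which 5 two-sided contrasts were taken. P-values were adjusted by Benjamini-Hochberg across the tested genes, and an adjusted p below 0.05 is a call. Log2 changes on this scale understate those of low genes, and a fold divides 1 mean FPKM by another. The test was tried on simulated data. The genes and lists were chosen with earlier results of these data known. Named from each list are the called genes, at most the 4 with the smallest p, or where none is called the 1 with the smallest p; fewer are named where the count is given. The second gene most like Ces1b is not reported here.

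Entrez identifiers of all 18 carboxylesterase rows matched RefSeq (GRCm38). Other settings tried were a pseudocount of 0.1, no filter, a minimum mean of 5 FPKM, 2 scalings (median-ratio and quantile), 2-group fits, variances without the trend, array weights, a block by replicate number, and leaving out each library. Leaving out the 3 sex-trace libraries was added after seeing the data. At most 0.295% of values were identical between 2 libraries, so no 2 columns are copies of each other; this does not show that libraries come from different animals. Motifs, identities and shared stretches were computed with Python 3.11.15 and Biopython 1.88, and figures were drawn with matplotlib 3.10.9. No column of values was left unused (0).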

Additional observations from a re-analysis of the deposited data

How the results depend on the processing

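Over the 50 log2 changes of the 10 carboxylesterases in 5 comparisons, alternatives and left-out libraries kept direction and side of the threshold in 1037 cases, lost a call in 20, gained one in 12 and changed sign in 21, all of these in genes that were not called. The cause of these changes was not tested. Many cases could not change sign, so the count of kept cases is not a measure of stability. In a comparison of 2 groups, leaving out a library of another group does not move the log2 change. Nor do a changed filter, a fit of only the 2 groups, variances without the trend, or the block by replicate number. Of the 2 genes called in OXR1A_M against WT_M, 0 were called when only those groups were fitted, 1 with array weights, 1 with the replicate number as a block (replicate block; Ces3b, with Ces2a at adjusted p = 0.0534), and 0 to 3 with a library left out. Between WT_M and WT_F, 4 were called with array weights and 2 to 4 with a library left out, against 2. Between OXR1A_M and OXR1A_F, 1 was called with no filter, with median-ratio scaling, with only the 2 groups fitted and without the 3 sex-trace libraries, and 1 to 2 with a library left out, against 2; the block left the count at 2, with Ces1d called and Ces3a not. For OXR1A_F against WT_F and for the difference of effects the number was 0 in every setting run.

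Signs turned in these cases. Turned signs of Ces2c, which is outside the genes counted above, are listed with them. After median-ratio scaling, Ces2e in OXR1A_M against WT_M was -0.071 and Ces2c -0.077, Ces1b in WT_M against WT_F was 0.16, and the difference of effects was -0.22 for Ces1d, -0.18 for Ces1e, -0.17 for Ces1f and -0.16 for Ces2e. After quantile normalization Ces1c had a difference of effects of 0.10 and Ces2c was -0.036 in OXR1A_M against WT_M. With array weights Ces3a in OXR1A_F against WT_F was -0.055, the difference of effects of Ces1d -0.14, and Ces2e in WT_M against WT_F -0.047. Without the 3 sex-trace libraries, Ces1g in OXR1A_M against OXR1A_F was 0.029. With 1 library left out, values in OXR1A_M against WT_M ran from -0.18 to 0.079 for Ces1e, from -0.13 to 0.0084 for Ces1f and from -0.22 to 0.42 for Ces2c, and Ces3a in OXR1A_F against WT_F ran from -0.16 to 0.29. The difference of effects ran from -0.20 to 0.00169 for Ces1b, from -0.13 to 0.18 for Ces1d and from -0.00474 to 0.25 for Ces1e. Ces2e in WT_M against WT_F ran from -0.011 to 0.092, and Ces1g in OXR1A_M against OXR1A_F from -0.24 to 0.011.

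Over all genes, the number called in OXR1A_M against WT_M was 294 and ran from 3 to 378 over the alternatives and from 58 to 570 with a library left out. It was 1539 for WT_M against WT_F (525 to 1555, and 675 to 2081), 423 for OXR1A_M against OXR1A_F (123 to 675, and 201 to 637), 2 for OXR1A_F against WT_F (0 to 229, and 0 to 12) and 3 for the difference of effects (2 to 10, and 1 to 22). Deviations from the group mean in libraries with the same replicate number correlated at r = -0.32 to 0.56 over 18 pairs (median -0.089). Pairs with different numbers had r = -0.62 to 0.42 over 36 pairs (median -0.015). The highest r, 0.56, was that of WT_M and OXR1A_M libraries 1. The numbers were not taken to pair the samples, and these values do not settle whether some were paired. Groups of 3 and an unstated read total limit the precision.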
